A study of Mus musculus with 4 samples.

Results

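Transcripts of 2 tissues that lie outside the cerebral cortex were followed in RNA from cortical cells sorted as astrocytes. The mice either kept Ezh2 or carried a knockout of it in astrocytes. The choroid plexus is represented by Ttr, Clic6, Aqp1, Enpp2, Folr1 and Kl, and the hypothalamus by the neuropeptide genes Avp, Oxt and Trh. These 9 genes, of 29224 in the deposited table, were picked by name after their values in these libraries were known, so their own differences between the groups are described without a test. The astrocytes came from the cerebral cortex of mice at postnatal day 5 (P5) and were pulled out with magnetic beads carrying an antibody to GLAST, a glutamate transporter of astrocytes and radial glia that the gene Slc1a3 encodes. Both groups carry floxed Ezh2 alleles, which Cre recombinase can cut. The Ezh2 f/f mice are called controls below. The Ezh2 cKO mice also carry Aldh1l1-icre, in which Cre is made under the control of Aldh1l1, a gene of astrocytes, so that EZH2, the enzyme that places H3K27me3 on chromatin, is removed in cells that use that gene. Each group had 2 libraries. The sources used here do not say whether the replicates are separate animals or pools, nor how the meninges, choroid plexus and deeper tissue were taken away, and p-values therefore measure only the spread between these libraries.

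The choroid plexus is a folded epithelium in the brain ventricles that makes cerebrospinal fluid. Its cells secrete the thyroid hormone carrier transthyretin (Ttr) in large amounts, move water through aquaporin 1 (Aqp1), carry folate into the fluid with a folate receptor (Folr1), and hold the chloride channel protein CLIC6 and the ageing-related protein Klotho (Kl). They also make autotaxin (Enpp2), the secreted enzyme that produces lysophosphatidic acid, which is known from oligodendrocytes and other brain cells as well. Vasopressin (Avp) and oxytocin (Oxt) are made by large neurons of the paraventricular and supraoptic nuclei, and thyrotropin-releasing hormone (Trh) by smaller neurons of the paraventricular nucleus and by scattered neurons elsewhere in the brain.

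The sequences of Avp and Oxt bear on how far their reads can be told apart. Both genes encode a short hormone joined to a neurophysin carrier, and in the coding sequences built from GENCODE M21 on GRCm38 they share an exact run of 127 bases, which covers bases 131 to 257 of 507 in Avp and bases 119 to 245 of 378 in Oxt. The run begins in exon 1 and ends in exon 2 of 3 in each gene. On chromosome 2 it spans 130581133 to 130582411 (minus strand) for Avp and 130576328 to 130576715 (plus strand) for Oxt, introns included. It is printed 5′ to 3′ on the coding strand with 20 bases of each gene on either side, and the capitals mark the shared run.
Avp: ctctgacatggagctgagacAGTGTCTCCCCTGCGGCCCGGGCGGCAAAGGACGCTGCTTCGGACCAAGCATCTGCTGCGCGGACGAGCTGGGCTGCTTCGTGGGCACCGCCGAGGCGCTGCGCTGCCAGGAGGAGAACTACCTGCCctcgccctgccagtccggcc
Oxt: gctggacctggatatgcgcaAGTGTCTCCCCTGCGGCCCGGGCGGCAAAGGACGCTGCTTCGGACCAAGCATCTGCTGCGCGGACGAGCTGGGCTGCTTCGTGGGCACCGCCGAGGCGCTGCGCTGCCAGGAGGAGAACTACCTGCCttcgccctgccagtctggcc
Of all stretches of 50 bases, 78 of 458 in the Avp coding sequence (17.0%) and 78 of 329 in the Oxt coding sequence (23.7%) occur in the other gene. How reads that match both genes were counted is not given in the sources used here, so the split between Avp and Oxt is uncertain.

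The promoters of the 3 neuropeptide genes are shown because Avp and Oxt, which are neighbours, lay lower in Ezh2 cKO while Trh lay higher. The sequences are the 250 bases before the start of each gene in RefSeq on GRCm38.p6, where 5 of the 9 genes were matched, and run 5′ to 3′ along the gene's own strand. They lie at chr2:130582589-130582838 (minus strand) for Avp, chr2:130575919-130576168 (plus strand) for Oxt and chr6:92244651-92244900 (minus strand) for Trh. The capitals mark matches to 4 motifs, each searched on both strands. The first was the E-box CACGTG, which reads the same either way. The second was the half-site of nuclear receptors, TGACCT, which in the reverse complement is spelled AGGTCA. The others were TATA-like strings, ATAAA in the one form and in the other form TATAA, which can overlap.
Avp: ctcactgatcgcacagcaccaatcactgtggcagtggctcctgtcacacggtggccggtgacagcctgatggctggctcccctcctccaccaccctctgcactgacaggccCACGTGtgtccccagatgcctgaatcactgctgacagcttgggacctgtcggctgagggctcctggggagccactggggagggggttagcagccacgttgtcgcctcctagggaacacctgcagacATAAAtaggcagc
Oxt: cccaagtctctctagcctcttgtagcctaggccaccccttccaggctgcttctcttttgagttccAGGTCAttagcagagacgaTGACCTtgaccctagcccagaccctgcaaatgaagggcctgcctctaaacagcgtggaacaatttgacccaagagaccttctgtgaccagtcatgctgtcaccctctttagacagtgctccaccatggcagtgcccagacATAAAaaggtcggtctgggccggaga
Trh: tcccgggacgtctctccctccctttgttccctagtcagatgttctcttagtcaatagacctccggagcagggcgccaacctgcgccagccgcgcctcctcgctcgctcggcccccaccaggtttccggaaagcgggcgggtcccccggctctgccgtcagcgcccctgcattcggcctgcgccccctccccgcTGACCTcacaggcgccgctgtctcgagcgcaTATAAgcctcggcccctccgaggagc
The Avp window holds the E-box at 139 to 134 bases before the start and ATAAA at 13 to 9. The Oxt window holds a half-site on each strand, at 185 to 180 and at 166 to 161, and ATAAA at 26 to 22. The Trh window holds 1 half-site at 57 to 52 and TATAA at 26 to 22. Among 32536 promoter windows of the same length, 6.04% hold the E-box, 14.0% the half-site, 37.2% ATAAA and 22.7% TATAA, each counted on either strand. These matches describe the letters only, and no binding was measured here.

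The libraries held 17522152 and 16273308 counts in controls and 17330230 and 16678309 in Ezh2 cKO. A floor of 3 counts, the most that a count of 0 allows, equals 0.170 to 0.191 CPM (counts brought to a common library size by the TMM method), and the floor covers counting error only. Ezh2 itself had 434 and 327 counts in controls and 211 and 164 in Ezh2 cKO (log2 fold change -1.11, standard error 0.16, edgeR adjusted p = 3.26e-05). All 12 astrocyte markers examined were found in every library, but S100b had only 23 and 19 counts in controls, and the summed level of the list was 491 and 505 CPM in controls against 2964 and 2704 CPM in Ezh2 cKO. The neuronal tubulin gene Tubb3 was also abundant, at 37613 counts or more in each library. The 10 neuronal markers summed to 6541 and 6747 CPM in controls and 7885 and 7845 CPM in Ezh2 cKO. That was more than the astrocyte list in every library. Such sums depend on the genes listed and are not shares of cells.

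Control replicate 2 stood apart from the other libraries in transcripts of the thalamus and in some of the midline, hindbrain, ependyma and choroid plexus. Tcf7l2, a transcription factor gene of the thalamus, had 88 counts in control replicate 1 and 1457 in replicate 2, against 60 and 75 in Ezh2 cKO. Gbx2, another thalamic gene, chosen for naming after its values were seen, had 9 and 138 counts in controls and none in Ezh2 cKO, and Zic1, a gene of the midline and hindbrain, had 592 and 1549 counts in controls and 211 and 194 in Ezh2 cKO. Of 11 thalamic genes tested, 6 were at least 1.5-fold higher in control replicate 2 than in replicate 1, where the share over all genes tested was 5.97%, and 4.95% were as much higher in replicate 1. None of the 12 cortical, 12 astrocyte, 10 neuronal or 12 striatal genes tested was that much higher in replicate 2, whereas 3 of 10 oligodendrocyte genes were. So were 6 of 10 ependymal genes, 6 of 13 other choroid plexus epithelium genes and 3 of 9 other hypothalamic genes. Of 5 midbrain, hindbrain and cerebellum genes 2 were, and 1 was that much higher in replicate 1. In the other direction, 1 cortical and 1 striatal gene were at least 1.5-fold higher in replicate 1. For the 9 transcripts the values of both control libraries are therefore given, and each fitted fold change is also given without replicate 2.

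Among the choroid plexus transcripts, Ttr, Folr1, Clic6 and Aqp1 lay lower in Ezh2 cKO, whereas Enpp2 and Kl lay higher. Among the hypothalamic transcripts, Avp and Oxt lay lower and Trh higher. For all 9 genes both Ezh2 cKO libraries lay on the same side of both control libraries, 6 below and 3 above. Because the genes were picked from these values, nothing follows from that count. Over the 16793 genes tested, 41.5% had both Ezh2 cKO libraries below and 42.8% had both above. With edgeR's quasi-likelihood test 33.6% of all genes tested were lower and 34.7% higher at an adjusted p under 0.05, and the median log2 fold change over all genes was 0.015. In bulk RNA such as this, fewer cells of a type and less RNA per cell cannot be told apart.

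**Figure D1:**
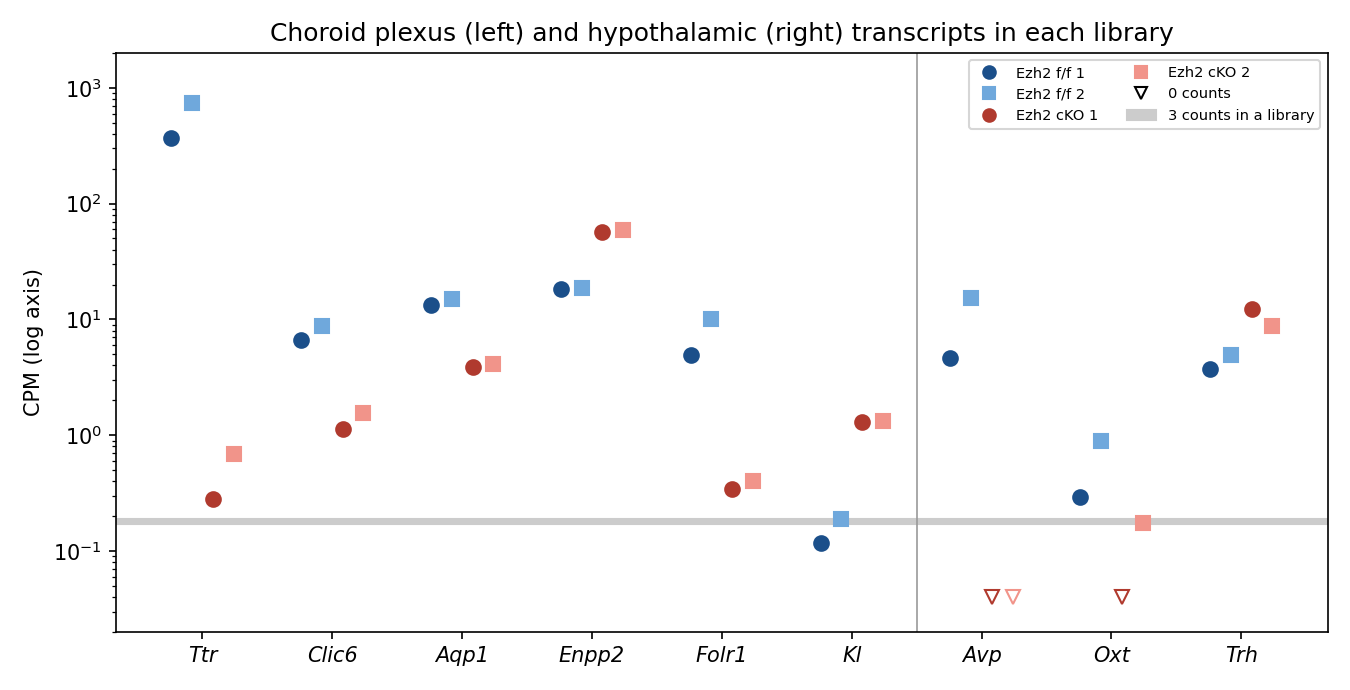
Level of the 9 transcripts in each library, in CPM on a log axis, with choroid plexus genes left of the line and hypothalamic genes right of it. Each filled point is 1 library (blue, Ezh2 f/f, which are the controls; red, Ezh2 cKO), open triangles at the bottom mark 0 counts, and the grey band is the level of 3 counts. Ttr spans from 737 CPM in control replicate 2 down to 0.283 CPM in Ezh2 cKO replicate 1, while Enpp2, Kl and Trh are higher in both Ezh2 cKO libraries.

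Ttr (ENSMUSG00000061808) had the highest level of the 9 in controls. It had 6326 and 11598 counts in controls against 5 and 12 in Ezh2 cKO. In CPM these were 369.9 and 737.2 against 0.283 and 0.692, or 554 ± 260 against 0.487 ± 0.289 CPM (SD, n = 2 each). Every control library thus stood far above every Ezh2 cKO library, although the control libraries differed 1.99-fold from each other. The mean was 1136-fold lower in Ezh2 cKO, with a fitted log2 fold change of -10.13 (standard error 0.39), and -9.57 without control replicate 2. Since the level in Ezh2 cKO rests on 5 and 12 counts, this size is imprecise: the pooled ratio was 1124 with a 95% counting interval of 701.9 to 1930, and the log2 fold change was -10.89 without Ezh2 cKO replicate 2. On the length-scaled FPKM scale the level of Ttr was 304 and 601 in controls, which ranked it number 107 and number 39 among 29224 genes, and 0.243 and 0.607 in Ezh2 cKO, which ranked it number 17405 and number 14722. Ttr alone took 0.0361% and 0.0713% of all counts in the control libraries.

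Folr1 (ENSMUSG00000001827, chromosome 7 from 101507538 to 101519995, minus strand) followed the same order of libraries as Ttr. Gene positions here and below are as deposited, in a build that is not settled, since the notes name mm9 and the positions are not those of GRCm38. Its counts were 85 and 160 in controls and 6 and 7 in Ezh2 cKO, or 7.57 ± 3.68 and 0.372 ± 0.0450 CPM (SD, n = 2 each). The mean was 20.4-fold lower in Ezh2 cKO (log2 fold change -4.32, standard error 0.43), and the log2 fold change was -3.73 without control replicate 2, where Folr1 was 2.05-fold higher than in replicate 1. Folate transport has other routes: the reduced folate carrier gene Slc19a1 had a log2 fold change of -0.34 (edgeR adjusted p = 0.0102), and the proton-coupled folate transporter gene Slc46a1 one of 0.68 (edgeR adjusted p = 1.40e-04). Slc19a1 did not pass without either Ezh2 cKO library (0.0550 and 0.0801).

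Clic6 (ENSMUSG00000022949, chromosome 16 from 92282624 to 92338131, plus strand) and Aqp1 (ENSMUSG00000004655, chromosome 6 from 55313417 to 55325540, plus strand) lay lower by less. Clic6 had 114 and 139 counts in controls and 20 and 27 in Ezh2 cKO. Its mean was 7.75 ± 1.53 against 1.34 ± 0.299 CPM (SD, n = 2 each), and the log2 fold change was -2.52 (standard error 0.27). Aqp1 had 227 and 234 counts in controls and 69 and 72 in Ezh2 cKO, or 14.1 ± 1.13 against 4.03 ± 0.171 CPM (SD, n = 2 each), a 3.49-fold difference with a log2 fold change of -1.80 (standard error 0.18). For both genes the libraries within a group lay close together, and both Ezh2 cKO libraries lay below both control libraries. This held for 41.5% of all genes tested. Both genes were picked from these values, so nothing follows from that gap. Without control replicate 2 the log2 fold changes were -2.32 for Clic6 and -1.73 for Aqp1. Unlike Ttr, Aqp1 was still well above the floor in Ezh2 cKO, at 3.91 and 4.15 CPM. The astrocyte water channel gene Aqp4 had 82 and 52 counts in controls and 1478 and 1582 in Ezh2 cKO, and rose by a log2 fold change of 4.42 (edgeR adjusted p = 4.14e-11), in the other direction from Aqp1.

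Enpp2 (ENSMUSG00000022425, chromosome 15 from 54702297 to 54816288, minus strand) lay higher in Ezh2 cKO, with replicates that lay close together in both groups. It had 312 and 294 counts in controls and 1012 and 1030 in Ezh2 cKO, or 18.5 ± 0.312 against 58.3 ± 1.44 CPM (SD, n = 2 each). This was a 3.16-fold difference (log2 fold change 1.66, standard error 0.10), and 1.66 without control replicate 2. Oligodendrocytes also make autotaxin. Of 12 oligodendrocyte genes listed 10 were tested, and all 10 were higher in Ezh2 cKO (edgeR), where 34.7% of all genes were. The list summed to 89.9 and 104 CPM in controls and 895 and 772 CPM in Ezh2 cKO. Mbp, which encodes a myelin protein, had 640 and 682 counts in controls and 8429 and 6913 in Ezh2 cKO. The part of oligodendrocytes in the level of Enpp2 was not tested. Of the genes that act on autotaxin's product, Lpar2 fell by 2.98 on the log2 scale (edgeR adjusted p = 1.90e-10). Lpar2 encodes a lysophosphatidic acid receptor and was chosen for naming after its values were seen. Plpp3, a lipid phosphatase gene, rose by 0.80 (edgeR adjusted p = 3.87e-06). These are single values from a list of 20 tested partners, of which 6 were higher and 5 lower in Ezh2 cKO.

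Kl (ENSMUSG00000058488, chromosome 5 from 150876072 to 150917282, plus strand) was the least abundant of the choroid plexus genes in controls, per length, at a mean of 0.0160 FPKM. It had 2 and 3 counts in controls, at or under the floor, and 23 counts in each Ezh2 cKO library, or 1.30 and 1.33 CPM. The pooled ratio of Ezh2 cKO to controls was 8.63, with a 95% counting interval of 3.44 to 27.8. Fgfr1, which encodes the receptor that Klotho binds with the hormone FGF23, fell by 1.15 on the log2 scale (edgeR adjusted p = 1.08e-07). In the list of 20 tested partners of the choroid plexus proteins, 6 were higher and 5 lower (3 lower without Ezh2 cKO replicate 1), shares no larger than the 34.7% and 33.6% over all genes, so the partners named here are single values and not a result about the list. Rbp4, the retinol carrier that transthyretin binds, also chosen for naming after its values were seen, had 10 and 21 counts in controls and 139 and 121 in Ezh2 cKO, and rose by a log2 fold change of 2.96 (edgeR adjusted p = 1.66e-06), in the other direction from Ttr. Without control replicate 2 its log2 fold change was 3.64.

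The 6 choroid plexus transcripts thus did not all differ in the same direction. Their summed level was 413 and 790 CPM in controls and 64.3 and 67.5 CPM in Ezh2 cKO, a log2 ratio of -3.19. Without Ttr the log2 ratio was 0.45, so that the sum of the other 5 was higher in Ezh2 cKO, where Enpp2 made up most of it. Without control replicate 2, and with Ttr, it was -2.65.

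Other genes of the choroid plexus epithelium, which were not used to pick the 6, were compared with the edgeR test over all genes. Of 18 in the list all were in the table and 13 had enough counts to be tested, and 8 of these were lower and 1 higher in Ezh2 cKO, where 33.6% and 34.7% of all genes were. The median log2 fold change of the 13 was -1.18, against 0.015 over all genes. Because Ttr and ependymal and choroid genes had been looked at in these libraries when the list was written, it is not independent of the data. The filter on low counts also kept genes that were high enough in the 2 control libraries alone. Such genes could come out lower but hardly higher, so the count is not free of the filter. With at least 50 counts on average 3 genes were left, of which 1 was lower and 0 higher. Tmem72, a membrane protein gene, had 51 and 69 counts in controls and 1 and 2 in Ezh2 cKO, a pooled ratio of 42.6 (95% counting interval 14.2 to 209.7, edgeR adjusted p = 7.69e-07). Lmx1a, which encodes a transcription factor of the roof plate from which choroid plexus arises, had 11 and 20 counts in controls and 0 in both Ezh2 cKO libraries, at least 5.58-fold lower (edgeR adjusted p = 2.03e-04). Both genes were at or under the floor in every Ezh2 cKO library. Mfrp had 19 and 17 counts against 1 and 1 (edgeR adjusted p = 1.22e-04).

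Other epithelial genes fell by less. Kcne2, which encodes a potassium channel subunit of this epithelium, had 68 and 62 counts in controls and 6 and 17 in Ezh2 cKO (log2 fold change -2.58, edgeR adjusted p = 4.44e-05). With Ezh2 cKO replicate 2 left out the fold change on the same scale was -3.51. Wfdc2 had 27 and 36 counts against 5 and 4 (log2 fold change -2.87, edgeR adjusted p = 1.12e-04). Slc13a4, a sulphate transporter gene that meningeal cells also use, fell by 0.71 on the log2 scale (edgeR adjusted p = 8.81e-04), and unlike Ttr it was higher in control replicate 1, with 650 counts, than in replicate 2, with 436. Calml4 and the tight junction gene Cldn2 passed with log2 fold changes of -1.28 and -1.18 (edgeR adjusted p = 0.0297 and 0.0447), but not without control replicate 2 (0.360 and 0.262) and not without either Ezh2 cKO library (0.0698 to 0.249 for Calml4, and 0.159 to 0.215 for Cldn2). Cldn2 also did not pass without control replicate 1 (0.0756). With DESeq2 neither Calml4 nor Cldn2 passed (adjusted p = 0.166 and 0.290). Col8a1, a collagen gene, was the one that rose, from 8 and 23 counts to 57 and 52 (log2 fold change 1.70, edgeR adjusted p = 0.00195). The size of this rise on the log2 scale was 2.70 with control replicate 2 left out and 1.09 with control replicate 1 left out. Without control replicate 2 the list had 5 lower and 2 higher genes, and Lmx1a no longer passed the filter on low counts.

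The defining markers of the epithelium were not all well detected. Kcnj13, a potassium channel gene, had 2 and 2 counts in controls and 1 and 3 in Ezh2 cKO, so that it was at or under the floor in all 4 libraries. Otx2, a transcription factor gene of the choroid plexus and of the midbrain and thalamus, had 10 and 71 counts in controls and 1 in each Ezh2 cKO library, and did not pass the filter on low counts. The summed level of the 18 genes was 63.7 and 69.0 CPM in controls and 41.9 and 39.8 CPM in Ezh2 cKO. Slc13a4 alone made up 38.0 and 27.7 CPM of it in controls and 21.8 and 18.3 CPM in Ezh2 cKO.

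**Figure D2:**
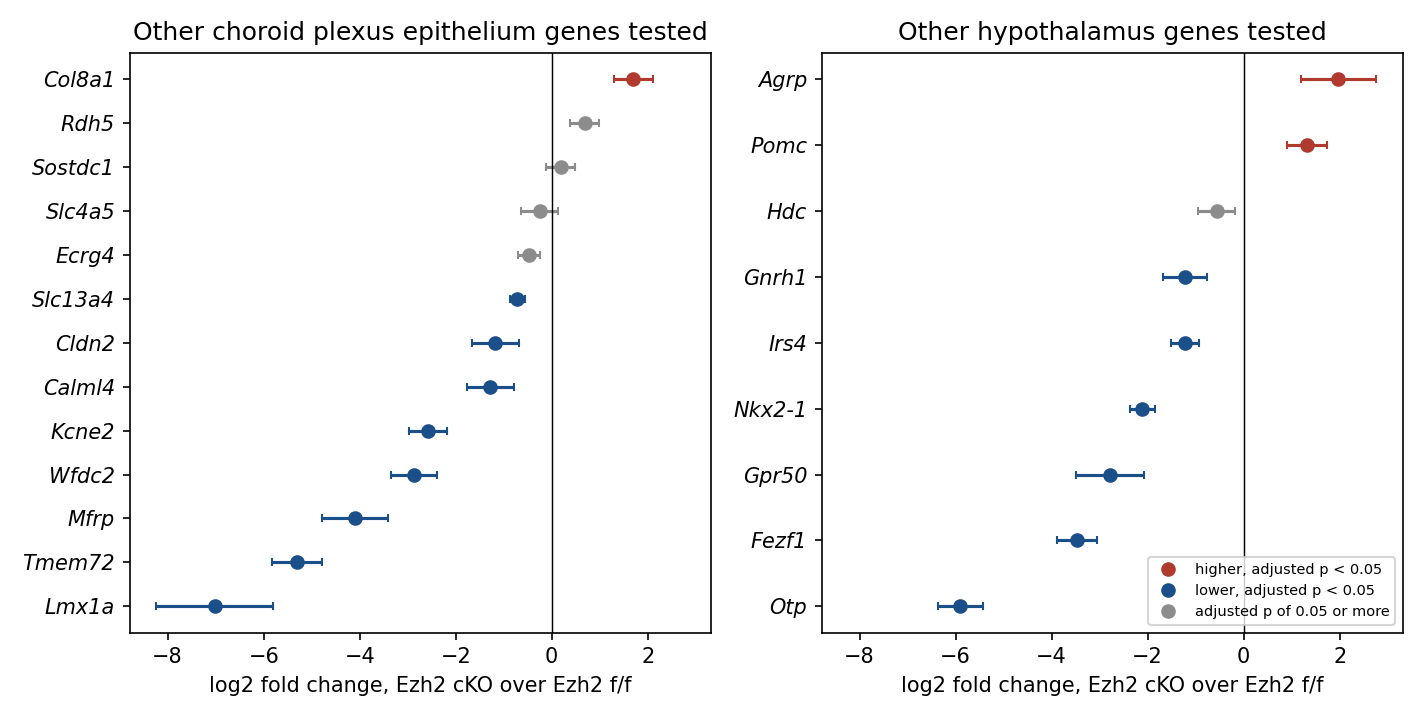
Log2 fold change (Ezh2 cKO over controls, edgeR) of the tested genes of the choroid plexus epithelium list (left) and the hypothalamus list (right) that are not among the 9 transcripts. Points are fitted values and bars 1 standard error, in blue for lower, red for higher and grey for genes that did not pass. Most called genes lie left of 0, and Col8a1, Pomc and Agrp lie right of it. The position of Lmx1a rests on 0 counts in Ezh2 cKO and depends on the prior count of the fit.

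Ependymal cells line the ventricles beside the choroid plexus and share with it a ciliated surface. Of 12 ependymal genes, 10 were tested, and 4 were lower and 2 higher in Ezh2 cKO (median log2 fold change -0.47), beside 33.6% and 34.7% of all genes. The 2 higher became 0 with DESeq2, without control replicate 1 and without Ezh2 cKO replicate 1, 1 without Ezh2 cKO replicate 2, and 3 without control replicate 2. Foxj1, the transcription factor gene of motile cilia, had 276 and 363 counts in controls and 204 and 149 in Ezh2 cKO (log2 fold change -0.96, edgeR adjusted p = 5.49e-04), and Tekt1, a gene of the ciliary axoneme, had 159 and 189 counts against 22 and 29 (log2 fold change -2.86, edgeR adjusted p = 2.23e-07). The list's summed level was 36.0 and 52.1 CPM in controls and 28.2 and 22.1 CPM in Ezh2 cKO, and 6 of its 10 tested genes were at least 1.5-fold higher in control replicate 2 than in replicate 1. Of 12 meningeal fibroblast genes, 7 were lower (4 without Ezh2 cKO replicate 2) and 3 higher, with a median log2 fold change of -0.44. Their part in the choroid plexus values was not tested.

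Avp (ENSMUSG00000037727, chromosome 2 from 130422540 to 130424474, minus strand) was found in both control libraries and in neither Ezh2 cKO library. It had 80 and 242 counts in controls and 0 in each Ezh2 cKO library, or 4.68 and 15.4 CPM against 0. The mean in controls was 10.0 ± 7.57 CPM (SD, n = 2), and against a floor of 3 counts per library Avp was at least 58.5-fold lower in Ezh2 cKO. Against control replicate 1 alone it was at least 27.3-fold lower. The gene was 3.29-fold higher in control replicate 2 than in replicate 1 (95% counting interval 2.54 to 4.29), the widest gap between control replicates among the 9 genes, but the 80 counts of replicate 1 alone were also far from 0. On the FPKM scale its level was 7.91 and 25.8 in controls.

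Oxt (ENSMUSG00000027301, chromosome 2 from 130418093 to 130418974, plus strand) lies beside Avp, with 3565 bases between them in the deposited coordinates, and is read from the other strand. It was much less abundant, with 5 and 14 counts in controls and 0 and 3 in Ezh2 cKO, and it did not pass the filter on low counts. Both Ezh2 cKO libraries were at or under the floor. The pooled ratio of controls to Ezh2 cKO was 6.75, with a 95% counting interval of 1.99 to 35.6. Since the sequences printed above overlap, some of these counts could belong to Avp, and the reverse.

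Trh (ENSMUSG00000005892, chromosome 6 from 92219042 to 92221631, minus strand) differed in the other direction. Its counts were 64 and 78 in controls and 218 and 153 in Ezh2 cKO, or 4.35 ± 0.859 against 10.6 ± 2.50 CPM (SD, n = 2 each). The lowest Ezh2 cKO library, at 8.82 CPM, was above the highest control library, at 4.96 CPM. Such a separation was seen for 42.8% of all genes tested. Trh was picked from these values, so nothing follows from it. The mean was 2.43-fold higher in Ezh2 cKO (log2 fold change 1.29, standard error 0.22), and the log2 fold change was 1.48 without control replicate 2. The summed level of Avp, Oxt and Trh was 8.71 and 21.2 CPM in controls and 12.3 and 8.99 CPM in Ezh2 cKO, which overlap. The log2 ratio of the sums was -0.49, turned to 0.29 without control replicate 2, and was -6.94 without Trh.

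Other hypothalamic genes were counted in the same way. Of 20 in the list 17 were in the table and 9 could be tested. In Ezh2 cKO 6 of the 9 were lower and 2 higher, where 33.6% and 34.7% of all genes were, with a median log2 fold change of -1.23. Here too a gene could pass the filter on low counts through the libraries of 1 group alone, which favours a call in that direction. With at least 50 counts on average 1 gene was left, and it was lower. Of the lower genes 3 encode transcription factors of the developing hypothalamus. Otp, which the neurons that make Avp, Oxt and Trh need to form, had 82 and 100 counts in controls and 1 and 2 in Ezh2 cKO, a pooled ratio of 64.7 (95% counting interval 21.8 to 316.5, edgeR adjusted p = 8.37e-08). Fezf1 had 65 and 52 counts against 8 and 3 (log2 fold change -3.47, edgeR adjusted p = 5.59e-06), and its log2 fold change was -4.30 without Ezh2 cKO replicate 1. Nkx2-1, a gene of the ventral forebrain and hypothalamus, had 112 and 104 counts against 23 and 30 (log2 fold change -2.11, edgeR adjusted p = 6.00e-06). These 3 genes passed whichever library was left out, and Otp and Nkx2-1 were at most 1.33-fold higher in control replicate 2 than in replicate 1.

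The signalling genes of the list were less abundant. Gpr50, a receptor gene of the hypothalamus, had 18 and 22 counts in controls and 6 and 0 in Ezh2 cKO (log2 fold change -2.78, edgeR adjusted p = 0.00311, and 0.0539 without Ezh2 cKO replicate 2). Irs4, an insulin receptor substrate gene, fell by 1.22 on the log2 scale (edgeR adjusted p = 0.00214). Gnrh1, the gene of the reproductive releasing hormone, also passed (log2 fold change -1.22, edgeR adjusted p = 0.0300), but not without control replicate 2 (0.203) and not without either Ezh2 cKO library (0.0513 and 0.263).

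Both feeding peptide genes of the arcuate nucleus that could be tested lay higher in Ezh2 cKO. Of these, Agrp passed the filter on low counts through the Ezh2 cKO libraries alone, which favours a call in that direction. Pomc had 11 and 19 counts in controls and 52 and 29 in Ezh2 cKO (log2 fold change 1.33, edgeR adjusted p = 0.0111), and did not pass without control replicate 1 (0.0542) or without Ezh2 cKO replicate 1 (0.222). Agrp had 0 and 6 counts against 15 and 11 (log2 fold change 1.97, edgeR adjusted p = 0.0378). It did not pass without control replicate 1 (0.322) or without either Ezh2 cKO library (0.252 and 0.136). With DESeq2 neither gene passed (adjusted p = 0.0887 for Pomc and 0.217 for Agrp). Gnrh1, which lay lower, did not pass with DESeq2 either (adjusted p = 0.195). Other defining genes were near 0: Sim1, another factor of the paraventricular nucleus, had 3 and 4 counts in controls and 0 in Ezh2 cKO, and Pmch, of the lateral hypothalamus, had 1 count in all 4 libraries together.

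Transcripts of the enzymes that cut and finish neuropeptides were higher in Ezh2 cKO, whereas Avp and Oxt lay lower. All 7 prohormone processing genes were tested and all 7 were higher in Ezh2 cKO, where 34.7% of all genes were. Pcsk1, a prohormone convertase gene, had 25 and 33 counts in controls and 155 in each Ezh2 cKO library (log2 fold change 2.32, edgeR adjusted p = 1.33e-06). Pcsk2, the gene of the second convertase, rose by 1.07, and Cpe, which encodes the carboxypeptidase of the same pathway, by 1.05 on the log2 scale (edgeR adjusted p = 1.72e-07 and 5.29e-08). Qpct, which encodes the enzyme that forms the pyroglutamate end of the hormone TRH, rose by 1.35 (edgeR adjusted p = 4.16e-05). Pam, of the amidating enzyme that all 3 hormones need, rose by 0.26 (edgeR adjusted p = 0.0316), and did not pass without control replicate 2 (0.111) or without Ezh2 cKO replicate 2 (0.253). Many neurons use these enzymes, and 6 of 10 neuronal markers were higher and 2 lower in Ezh2 cKO, beside 34.7% and 33.6% of all genes. The part of neurons or of other cells in the levels of the enzyme genes was not tested.

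Of 8 genes for receptors and peptidases of the 3 hormones, 5 were tested, with 3 higher and 0 lower, where 34.7% and 33.6% of all genes were. Trhde, the enzyme on the cell surface that degrades TRH, had 37 and 31 counts in controls and 153 and 188 in Ezh2 cKO (log2 fold change 2.23, edgeR adjusted p = 1.10e-06), and the TRH receptor gene Trhr had 25 and 12 counts against 58 and 79 (log2 fold change 1.80, edgeR adjusted p = 3.84e-04). The oxytocin receptor gene Oxtr had 178 and 154 counts against 326 and 303 (log2 fold change 0.83, edgeR adjusted p = 1.98e-04). The vasopressin receptor gene Avpr1a had a log2 fold change of 0.55 (edgeR adjusted p = 0.117), and Avpr1b and Avpr2 had 5 counts or fewer in each library. Thus transcripts for the TRH hormone, its receptor and its degrading enzyme all lay higher in Ezh2 cKO, of which the last 2 were tested.

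**Figure D3:**
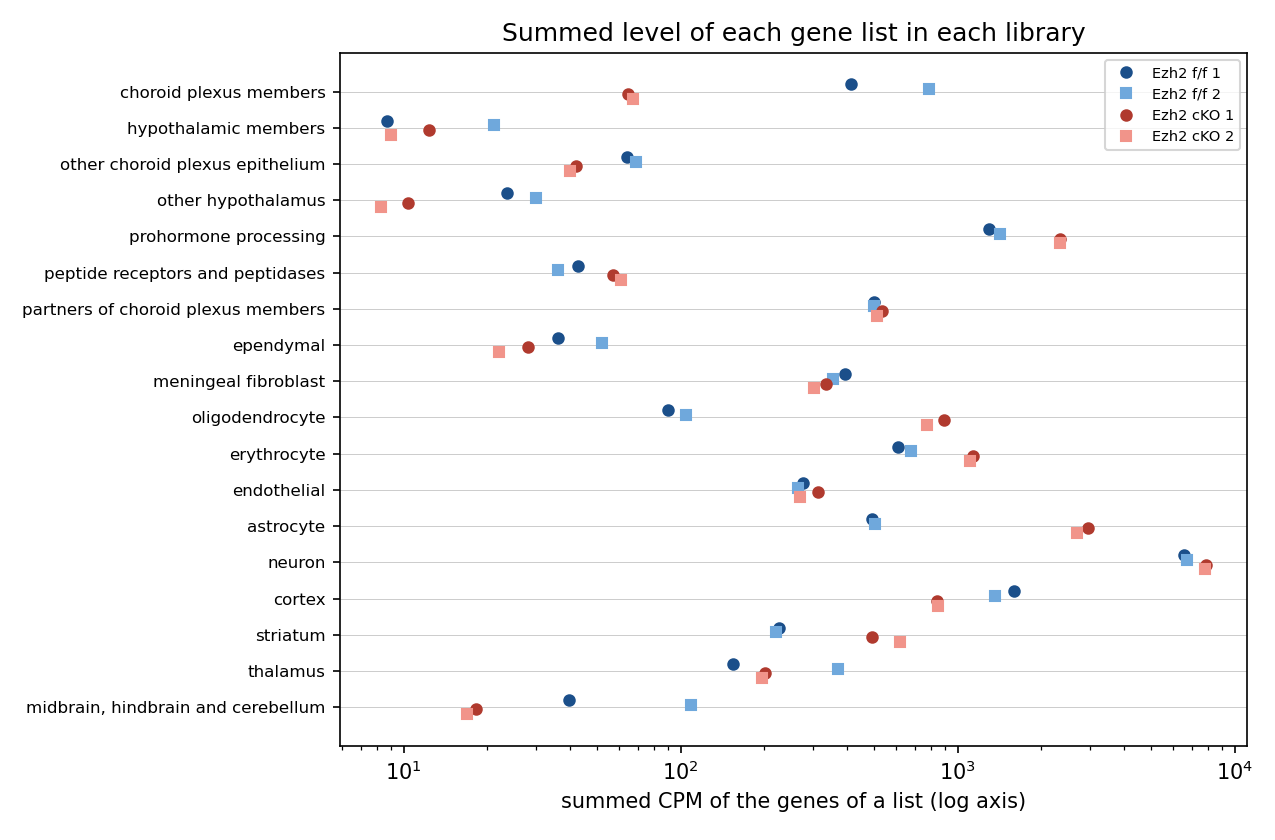
Summed CPM of each gene list in each library, on a log axis, with 1 point per library. The choroid plexus transcripts fall from 413 and 790 CPM in controls to 64.3 and 67.5 CPM in Ezh2 cKO, the hypothalamic ones overlap between the groups, and the astrocyte and oligodendrocyte lists are higher in both Ezh2 cKO libraries. control replicate 2 lies to the right of control replicate 1 in the thalamus list and in the midbrain, hindbrain and cerebellum list.

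Lists for other regions and cells were compared beside these results. Of 12 cortical genes 8 were lower and 1 higher (summed 1603 and 1367 CPM in controls, 839 and 846 CPM in Ezh2 cKO), and of 12 striatal genes 9 were higher and 3 lower (226 and 220 CPM against 492 and 618 CPM). The thalamic list had 2 higher and 3 lower genes of 11 tested, with 155 and 370 CPM in controls and 202 and 196 CPM in Ezh2 cKO. Its balance turned with 1 library, to 4 higher and 1 lower without control replicate 2 and to 1 higher and 5 lower without control replicate 1. Midbrain, hindbrain and cerebellum genes summed to 39.4 and 109 CPM in controls and 18.2 and 16.9 CPM in Ezh2 cKO, with 1 higher and 2 lower of 5 tested (1 lower without control replicate 2 or without either Ezh2 cKO library, and 0 higher without Ezh2 cKO replicate 1). Of 8 erythrocyte genes 5 were higher and 0 lower, but 1 was higher without control replicate 1 and also without Ezh2 cKO replicate 1, and 2 with DESeq2. Of 10 endothelial genes 3 were higher and 1 lower, and the lower one was lost with DESeq2, without control replicate 1 and without either Ezh2 cKO library. All these counts stand beside 34.7% higher and 33.6% lower over all genes. The part of any of these in the levels of the 9 transcripts was not tested.

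The gap between the 2 control libraries was not the same for all 9 transcripts. Ttr, Folr1 and Avp were 1.99-fold, 2.05-fold and 3.29-fold higher in replicate 2, Clic6 and Trh each about 1.33-fold, Aqp1 1.12-fold and Enpp2 1.02-fold. Oxt was 3.04-fold higher there, on 5 and 14 counts, and Kl 1.63-fold, on 2 and 3 counts. Of the other epithelial genes 6 of 13, and of the other hypothalamic genes 3 of 9, were at least 1.5-fold higher in replicate 2, and none was as much higher in replicate 1. These ratios compare single libraries. For all 9 transcripts even the control library nearer to Ezh2 cKO lay on the same side, but the genes were picked from these values. Nothing follows from that separation. Over all genes tested, 41.5% had both Ezh2 cKO libraries below both control libraries and 42.8% had both above. For Oxt the nearest libraries of the groups held 5 and 3 counts, of which the second is at the floor.

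**Figure D4:**
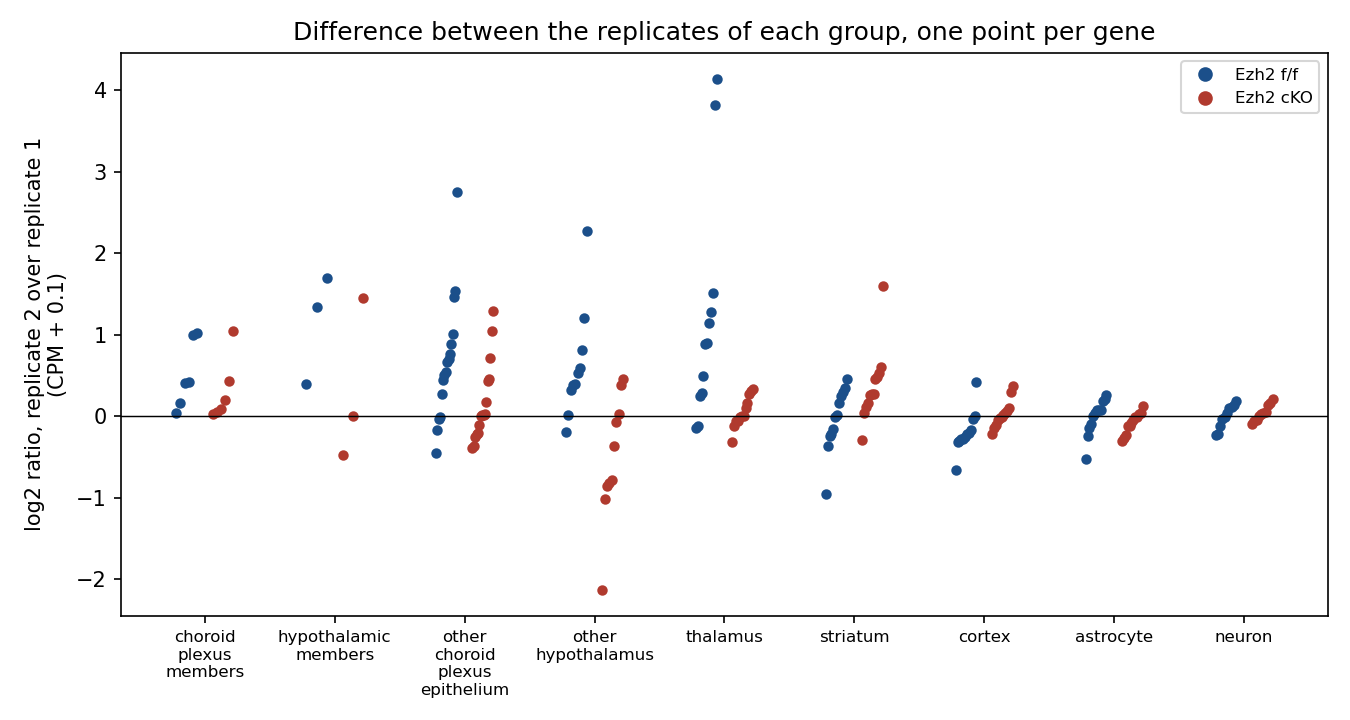
Log2 ratio of replicate 2 over replicate 1 within each group, with 0.1 CPM added, in blue for controls and in red for Ezh2 cKO. Each point is a gene of a list drawn here. Genes with few counts are left out, as are some lists, such as the ependymal and oligodendrocyte lists. Points near 0 are equal in both replicates. Thalamic genes reach the largest ratios in controls, and several choroid plexus and hypothalamic genes also lie above 0 there, whereas cortical, astrocyte and neuronal genes lie nearer to 0.

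The genes whose values ran most like those of Ttr and Avp over the 4 libraries were found by the Euclidean distance between log2(CPM + 0.5) values, each centred on its own mean. The genes nearest to Ttr were still far from it. Slc17a9, which encodes a nucleotide transporter of vesicles, was nearest at a distance of 4.28, followed by Cd72 (4.76) and Tulp1 (4.83), and all 3 differed less between the groups and little between the control replicates. Nearer to Avp were Asic3 (0.825), a gene of an acid-sensing channel, Dlk1 (0.951), which encodes a membrane protein related to Notch ligands, and Tex35 (0.997). Dlk1 had 390 and 578 counts in controls and 41 and 31 in Ezh2 cKO, and Asic3 had 191 and 279 against 10 and 11. Avp had 0 counts in Ezh2 cKO, so its distances depend on the 0.5 added to CPM. Unlike Avp, these 3 genes had counts in both Ezh2 cKO libraries. Their log2 fold changes were -4.57 for Asic3, -3.85 for Dlk1 and -6.38 for Tex35.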

How the data were processed

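RNA of 2 Ezh2 f/f and 2 Ezh2 cKO libraries was sequenced on an Illumina HiSeq instrument. The authors deposited, for 29224 genes, raw read counts and FPKM values (counts scaled to gene length and library size). Per the submitters' processing notes, TopHat2 2.0.12, Bowtie2 2.2.3, HTSeq 0.6.0 and the build mm9 were used; their order, the annotation and the use of strand are not given in the sources used here. The coordinates of none of the 9 genes equal those of GRCm38 in GENCODE M21, so the build of the deposited coordinates is not settled, and they are printed as deposited. The table also holds the authors' own comparison (mean signal, fold change, its log2, p-values and calls), which was not used. Of the sample columns, 0 were left out.

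Counts were filtered with filterByExpr (16793 genes left), normalized by TMM and fitted with edgeR 4.0.16 in R 4.3.3 by the quasi-likelihood test with group as the only term, on all 4 libraries. Benjamini-Hochberg adjustment ran over every gene tested, with a threshold of 0.05. Each fold change sets Ezh2 cKO over the controls, Ezh2 f/f. Standard errors of edgeR fits are the absolute log2 fold change divided by the square root of the F statistic of the test. For the 9 genes they are given as a description only, since the genes were picked from the data. Intervals of count ratios are exact and cover counting error only. Fits were tested on simulated data. Tables and plots were made in Python 3.11.15. The 9 genes and the 18 lists (the 2 groups of transcripts included) were chosen with earlier results of these data known; 8 listed genes were not in the table used here. Genes named are the 9, list genes that were called or abundant, defining markers near 0, and the 3 nearest to Ttr and to Avp; others are said to be chosen after their values were seen. Alternatives were DESeq2 1.42.0, its size factors in edgeR, library totals, no filter or at least 50 counts on average, limma 3.58.1 on log2(FPKM + 1) or log2(FPKM + 0.1) (genes that reach 1 FPKM in 2 libraries), a replicate block, and each library left out.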

Additional observations from a re-analysis of the deposited data

How the results depend on the processing

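For the 13 tested genes of the choroid plexus epithelium list, 1 higher and 8 lower by edgeR became 2 higher with library totals and with no filter, 0 higher with at least 50 counts (1 lower, of 3 tested) and 0 higher and 3 lower with limma at either pseudocount (5 tested). Leaving out single libraries gave 1 to 2 higher and 5 to 9 lower. For the hypothalamus list, 2 higher and 6 lower became 0 higher with DESeq2, 1 with no filter, 1 with limma at either pseudocount, and 0 higher and 1 lower with at least 50 counts (1 tested), and leaving out single libraries gave 0 to 2 higher and 4 to 7 lower. With DESeq2, 7 of 17 tested epithelium genes and 5 of 11 tested hypothalamus genes were lower. Fewer genes pass the stricter filters, and other causes were not tested. The log2 ratio of the summed choroid plexus transcripts, -3.19, was -5.16 in FPKM, -3.58 to -2.65 with single libraries left out and 0.45 without Ttr. That of the hypothalamic transcripts, -0.49, was -1.38 in FPKM, -0.99 to 0.29 with single libraries left out, and -6.94 without Trh. The sums without Ttr or Trh were chosen after seeing the data.

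With the replicate number as a block 5795 genes were higher and 5599 lower, against 5831 and 5650. Only the number is shared: same-numbered libraries deviated together with r = 0.161 across 12918 genes. With 2 pairs this does not show pairing. The block left the epithelium list with 1 higher and 7 lower genes and the hypothalamus list with 2 and 6. DESeq2 called 4695 higher and 4974 lower, and library totals 6286 and 5129. Genes of a few counts, such as Oxt, Kl, Kcnj13 and Sim1, are limited by depth.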
